A study of Homo sapiens with 18 samples.

Results

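The 10 genes described here encode ligands of the tumour necrosis factor (TNF) superfamily: *TNF*, *LTA*, *LTB*, *TNFSF4*, *TNFSF8*, *TNFSF9*, *TNFSF10*, *TNFSF13B*, *TNFSF14* and *TNFSF15*. They were found by gene symbol, through the GENCODE 29 annotation, among 57500 genes counted in each of 18 RNA-seq libraries. All libraries came from THP-1, a human monocytic leukaemia cell line, and 3 stably transduced lines were used. The shNT line carried a non-target hairpin, the shNR4A2 line a hairpin against *NR4A2* and the shNR4A3 line a hairpin against *NR4A3*, both of them nuclear orphan receptor genes, so that every group carried a lentiviral hairpin and each knockdown was represented by a single line. Each line was either left without LPS (control) or given 2.5 μg/ml of LPS (lipopolysaccharide), a bacterial cell wall component that acts through Toll-like receptor signalling, for 2 h, which gave 6 groups of 3 libraries. The study describes the replicates as independent experiments. Total counts per library ranged from 16171161 to 23929138, with a median of 19639071.

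TNF superfamily ligands are mostly made as membrane-bound trimers, some of which are cut from the cell surface, and they act on receptors of the TNF receptor superfamily. These receptors signal through adaptor proteins to NF-kappaB and, where they carry a death domain, to cell death. In monocytes and macrophages, *TNF* is a classical early target of LPS, whereas the products of the other family members regulate lymphoid tissue, costimulation of T cells, apoptosis and B cell survival. NR4A receptors are themselves early response genes that bind DNA as monomers at a short element termed the NBRE.

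Monocytic identity was examined with 8 marker genes, and all 8 had a mean level of at least 1 TPM (a count corrected for gene length and scaled to a fixed total per library). *LYZ*, encoding lysozyme, was the most abundant of these at a mean of 515 TPM. Of 6 T cell markers only *TRAC* reached this level, of 5 NK cell markers only *KLRF1* did, and none of the 4 fibroblast or 4 epithelial markers did. Of 5 B cell markers 4 reached 1 TPM, *PAX5* the most abundant of them, and the 5 had a summed level of 5.47 to 17.3 TPM over libraries. The summed level of the monocyte markers differed between the lines. Without LPS it was 473 ± 40.1 TPM in shNT, 1016 ± 161 TPM in shNR4A2 and 1278 ± 209 TPM in shNR4A3 cells (mean ± SD, n = 3), and *LYZ* made up much of this, at 192, 615 and 883 TPM. With LPS the summed level was 396 ± 24.9, 813 ± 35.2 and 1038 ± 116 TPM in the same order. The part of this in the differences between lines reported here was not tested. In bulk samples such as these, fewer cells expressing a gene and less RNA per cell cannot be told apart.

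*TNF*, *LTA* and *LTB* lie together in the major histocompatibility complex on chromosome 6 and span 10469 bases in all (GRCh38). *LTA* (chr6:31572054-31574324, plus strand) ends 1242 bases before *TNF* (chr6:31575567-31578336, plus strand), and *LTB* (chr6:31580525-31582522, minus strand) follows after another 2188 bases. *TNFSF9* (chr19:6530999-6535928, plus strand) and *TNFSF14* (chr19:6661253-6670588, minus strand) share chromosome 19. *TNFSF15* (chr9:114784635-114806126) and *TNFSF8* (chr9:114893343-114930595) are neighbours on the minus strand of chromosome 9. *TNFSF10* is at chr3:172505508-172523507 on the minus strand, *TNFSF13B* at chr13:108251240-108308484 on the plus strand and *TNFSF4* at chr1:173183734-173207313 on the minus strand. All 10 are protein-coding, and no exon base of any of them is shared with another annotated gene, so that counts are not split between overlapping genes.

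Promoter sequences were examined because the ligand genes of the chromosome 6 cluster moved together with LPS, as described below, and because *TNFSF15* responded in all 3 lines and differed between them. RefSeq (GRCh38.p14) gives a promoter for 9 of the 10 genes, with *TNFSF8* the gene for which no entry was matched. The stretches shown are read 5′ to 3′ on the strand of the gene and end at or before the RefSeq start; bases that GENCODE 29 places in an exon were left out for *LTA*. The RefSeq start used for *TNFSF15* is that of a shorter transcript and lies inside the gene span given above. Capitals mark a match to the AP-1 heptamer (TGANTCA), which only the *TNFSF15* stretch of the 3 holds.
TNF, chr6:31575315-31575564, plus strand: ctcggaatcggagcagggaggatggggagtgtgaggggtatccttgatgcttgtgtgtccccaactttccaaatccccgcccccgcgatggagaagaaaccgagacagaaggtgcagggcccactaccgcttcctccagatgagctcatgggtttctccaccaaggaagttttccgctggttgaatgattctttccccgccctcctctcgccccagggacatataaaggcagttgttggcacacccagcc
LTA, chr6:31571849-31572053, plus strand: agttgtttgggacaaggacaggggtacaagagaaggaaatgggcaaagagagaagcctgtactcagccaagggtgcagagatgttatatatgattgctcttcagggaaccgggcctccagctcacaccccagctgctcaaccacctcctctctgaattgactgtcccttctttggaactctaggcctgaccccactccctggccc
TNFSF15, chr9:114792531-114792780, minus strand: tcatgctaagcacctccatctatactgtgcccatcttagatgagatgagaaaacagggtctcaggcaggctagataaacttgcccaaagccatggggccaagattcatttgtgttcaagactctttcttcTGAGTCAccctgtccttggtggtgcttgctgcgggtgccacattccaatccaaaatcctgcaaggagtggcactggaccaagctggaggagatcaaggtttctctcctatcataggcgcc

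Both strands were searched for the NF-kappaB decamer, and matches were found in the 250 bases upstream of the RefSeq starts of *LTB*, which rose with LPS, and of *TNFSF14*, which fell, and they are shown with their flanks, the match in capitals. Both starts lie inside the gene spans given above, and GENCODE 29 places 26 of the 30 bases shown for *LTB* and all 30 for *TNFSF14* in exons of longer transcripts.
LTB, chr6:31582492-31582521, minus strand: aggggtgtgcGGAAAGTCCCagccaggtgt
TNFSF14, chr19:6670333-6670362, minus strand: agggaaagctGGGGGCTCCCCactgcactt
In *TNFSF14* a pair of decamers overlap by all but 1 base, each of them a match on either strand. The decamer was thus held by 2 of 9 ligand promoters and by 9.57% of 27305 RefSeq promoters of the same length. The AP-1 heptamer, which is its own reverse complement, was held by the *TNFSF14* and *TNFSF15* promoters (2 of 9, against 6.60% of all). The NBRE (AAAGGTCA, both strands) was held by none of the 9, against 1.05% of all promoters. The decamer was searched as GGGRNNYYCC, where R is A or G, Y is C or T and N is any base. Sites that depart from the patterns given, or that lie outside these windows, are not counted.

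Without LPS, shNT cells had appreciable transcript levels of 4 ligands. Mean levels were 70.3 ± 7.75 TPM for *TNFSF9* (4-1BBL, which costimulates T cells), 65.3 ± 11.8 TPM for *TNF*, 39.6 ± 8.46 TPM for *TNFSF14* (LIGHT) and 32.2 ± 6.70 TPM for *LTB* (lymphotoxin beta, which anchors lymphotoxin alpha to the membrane). Library values of *TNFSF9* and *TNF* overlapped, as did those of *TNFSF14* and *LTB*, so that the order within these pairs was not resolved. The next levels were 9.27 ± 1.57 TPM for *TNFSF13B* (BAFF, a B cell survival factor), 4.65 ± 0.487 TPM for *TNFSF10* (TRAIL, an inducer of apoptosis) and 3.46 ± 0.389 TPM for *LTA* (lymphotoxin alpha), and these 3 did not overlap. *TNFSF15* (TL1A, which costimulates T cells) at 0.547 ± 0.139 TPM and *TNFSF4* (OX40L, another costimulatory ligand) at 0.497 ± 0.0785 TPM overlapped. *TNFSF8* (CD30L) gave 13 counts in all 18 libraries together, with 0 counts in the 3 untreated shNR4A3 libraries, where a count of 0 allows up to 3 counts, and it was tested in no comparison.

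**Figure D1:**
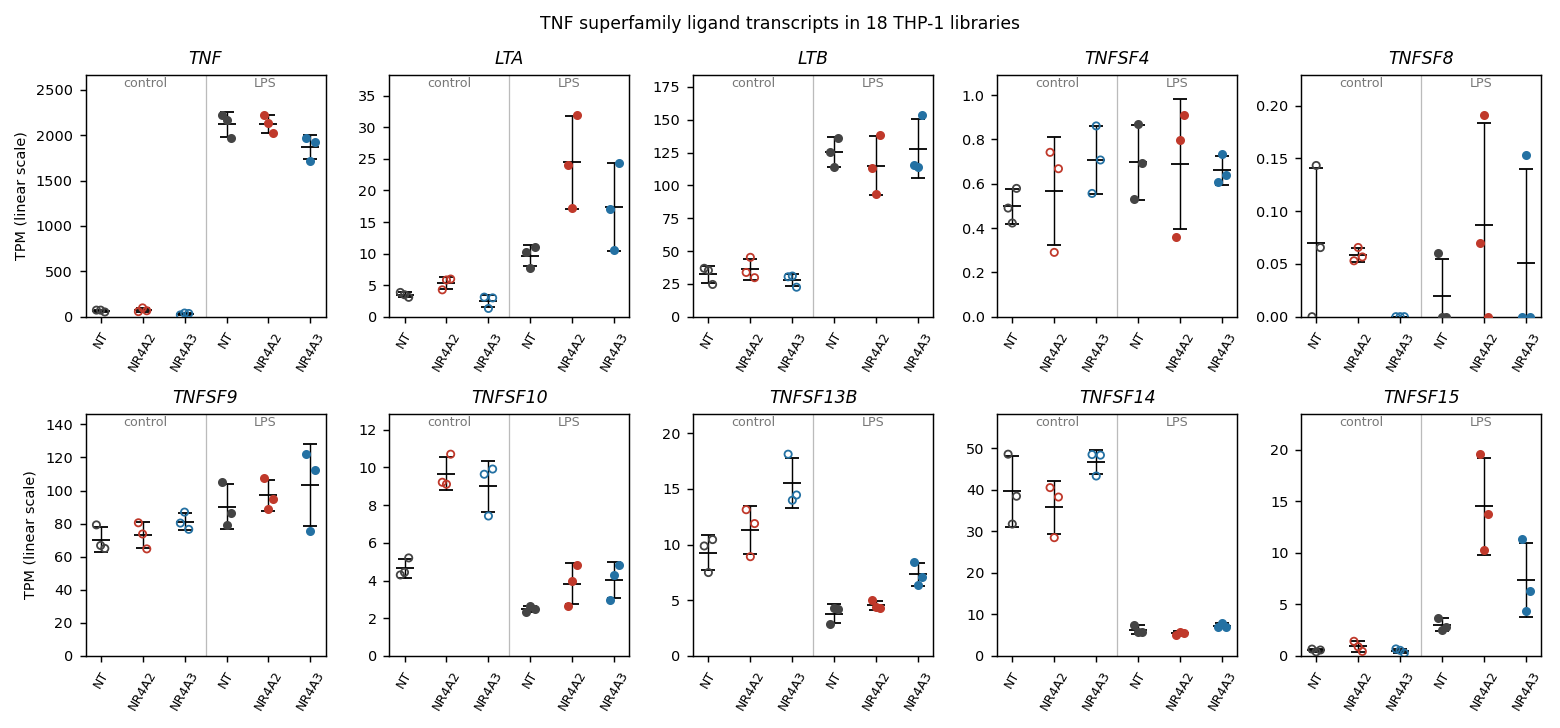
Transcript levels of the 10 ligand genes in TPM (vertical axes, linear, one scale per gene) in the 3 lines without LPS (open circles) and with LPS (filled circles). Each circle is 1 library and the bars give the mean and SD of 3 libraries. *TNF* lies between 1712 and 2223 TPM in all LPS libraries, while *TNFSF14* lies between 28.4 and 48.5 TPM without and between 5.08 and 7.92 TPM with LPS.

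LPS changed the order of the ligands. In shNT cells given LPS, *TNF* led at 2118 ± 136 TPM, followed by *LTB* at 125 ± 11.3, *TNFSF9* at 90.1 ± 13.6, *LTA* at 9.68 ± 1.69 and *TNFSF14* at 6.35 ± 1.04 TPM, with no overlap between neighbours. *TNFSF13B* (3.80 ± 0.827 TPM), *TNFSF15* (3.02 ± 0.614 TPM) and *TNFSF10* (2.50 ± 0.144 TPM) followed, each overlapping the next, and *TNFSF4* remained lowest of the genes tested at 0.698 ± 0.169 TPM. The 10 ligands together summed to 226 ± 28.5 TPM without and 2359 ± 134 TPM with LPS. *TNF* made up 28.9% of this sum without and 89.8% with LPS in shNT cells, 29.6% and 88.9% in shNR4A2 cells, and 14.6% and 87.2% in shNR4A3 cells. By its mean level, *TNF* ranked 2668th among the genes detected in untreated shNT cells and 57th in those given LPS.

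The response to LPS was compared within each line, 3 libraries against 3, to ask which ligands respond in cells with and without a partial knockdown of either NR4A gene. In each line, 5 ligands rose (*TNF*, *LTA*, *LTB*, *TNFSF9* and *TNFSF15*), 3 fell (*TNFSF10*, *TNFSF13B* and *TNFSF14*) and *TNFSF4* did not pass the test. Thus 8 of the 9 ligands tested were called in each line at an adjusted p under 0.05, against 24.9% of all genes tested in shNT (11.6% higher and 13.3% lower), 19.3% in shNR4A2 (9.23% and 10.1%) and 28.1% in shNR4A3 cells (13.1% and 15.0%). The median log2 fold change of the 9 was 0.70, 0.68 and 0.59 in shNT, shNR4A2 and shNR4A3 cells, and that of all genes tested was -0.01, -0.02 and -0.01. TPM values, which share a fixed total, shifted for the median gene by -0.23, -0.28 and -0.24 on the log2 scale with LPS in the same lines, so that fold changes are given from counts scaled by the trimmed mean of M-values (TMM) and not from TPM.

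*TNF* transcript levels in shNT cells were 72.3, 71.9 and 51.6 TPM without and 2221, 2168 and 1964 TPM with LPS. In shNR4A2 cells they were 55.5, 96.8 and 65.4 TPM without and 2223, 2129.9 and 2026 TPM with LPS. In shNR4A3 cells they were 19.3, 39.8 and 35.2 TPM without and 1964, 1712 and 1929 TPM with LPS. Control and LPS libraries were thus far apart in each line, and the shNR4A3 control libraries were the lowest of all. The log2 fold change with LPS was 5.23 ± 0.145 (SE) in shNT, 5.14 ± 0.212 in shNR4A2 and 6.14 ± 0.223 in shNR4A3 cells (edgeR, Benjamini-Hochberg adjusted p = 4.48e-12, 4.40e-09 and 9.36e-09), or 37.6-, 35.3- and 70.4-fold.

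The lymphotoxin genes that flank *TNF* rose as well, from lower levels. *LTA* was at 3.84, 3.48 and 3.07 TPM in untreated shNT cells and at 10.2, 7.78 and 11.02 TPM with LPS. In shNR4A2 cells it was at 4.25, 5.82 and 5.97 TPM and rose to 24.1, 17.3 and 32.0 TPM, and in shNR4A3 cells at 3.10, 1.30 and 2.98 TPM and rose to 17.1, 10.5 and 24.4 TPM. The groups did not overlap in any line, and the 5 highest *LTA* values were all in knockdown lines given LPS. The log2 fold changes were 1.70 ± 0.230, 2.48 ± 0.268 and 3.03 ± 0.380 in shNT, shNR4A2 and shNR4A3 cells (edgeR adjusted p = 8.93e-05, 2.95e-05 and 0.000148). *LTB* rose in every line, with log2 fold changes of 2.17 ± 0.157, 1.95 ± 0.205 and 2.43 ± 0.164 (edgeR adjusted p = 1.68e-07, 2.37e-05 and 1.23e-06), with control libraries between 22.4 and 45.2 TPM and LPS libraries between 93.6 and 154 TPM over all lines.

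Of the costimulatory ligands, *TNFSF15* rose most. Its levels were 0.668, 0.396 and 0.579 TPM in untreated shNT cells and 3.71, 2.54 and 2.81 TPM with LPS. In shNR4A2 cells they were 1.42, 0.894 and 0.438 TPM without and 19.6, 10.3 and 13.7 TPM with LPS, and in shNR4A3 cells 0.682, 0.545 and 0.278 TPM without and 11.4, 4.40 and 6.35 TPM with LPS. Every LPS library of a knockdown line was above every LPS library of shNT cells. The log2 fold change with LPS was 2.67 ± 0.241, 4.25 ± 0.363 and 4.12 ± 0.422 in shNT, shNR4A2 and shNR4A3 cells (edgeR adjusted p = 1.84e-06, 3.84e-06 and 3.43e-05). The untreated groups rested on few reads, at 69, 131 and 57 counts over 3 libraries each.

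*TNFSF9*, already abundant without LPS, also rose, and its log2 fold changes were 0.58 ± 0.129 in shNT, 0.68 ± 0.149 in shNR4A2 and 0.59 ± 0.175 in shNR4A3 cells (edgeR adjusted p = 0.00472, 0.00601 and 0.0266). In shNR4A3 cells its library values were 80.3, 87.0 and 76.5 TPM without and 122, 75.4 and 113 TPM with LPS, so that the groups overlapped through LPS replicate 2. Leaving out any one of the other 5 libraries of that comparison ended the call (adjusted p from 0.0571 to 0.111). *TNFSF4* gave 31 to 48 counts per group, and its log2 fold change of 0.70 ± 0.365 in shNT, 0.54 ± 0.439 in shNR4A2 and 0.13 ± 0.329 in shNR4A3 cells was not distinguishable from none at this depth (edgeR adjusted p = 0.193, 0.444 and 0.810).

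The ligands that fell with LPS were *TNFSF14*, *TNFSF13B* and *TNFSF10*. *TNFSF14* was at 48.5, 31.7 and 38.4 TPM in untreated shNT cells and at 7.55, 5.77 and 5.72 TPM with LPS. It was at 40.5, 28.4 and 38.2 TPM without and 5.08, 5.85 and 5.58 TPM with LPS in shNR4A2 cells, and at 48.4, 43.3 and 48.3 TPM without and 7.04, 7.92 and 6.97 TPM with LPS in shNR4A3 cells. The fall was close in size in the 3 lines, at log2 fold changes of -2.42 ± 0.161, -2.43 ± 0.161 and -2.45 ± 0.113 (edgeR adjusted p = 7.09e-08, 3.32e-07 and 5.58e-08). *TNFSF14* is a ligand of the receptors encoded by *TNFRSF14* and *LTBR*.

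*TNFSF13B* had a log2 fold change with LPS of -1.06 ± 0.195 in shNT, -1.04 ± 0.206 in shNR4A2 and -0.85 ± 0.185 in shNR4A3 cells (edgeR adjusted p = 0.00114, 0.00324 and 0.00521), and control and LPS libraries did not overlap in any line. *TNFSF10* had log2 fold changes of -0.67 ± 0.189, -1.06 ± 0.218 and -0.94 ± 0.213 in the same order (edgeR adjusted p = 0.0185, 0.00420 and 0.00689). In shNT cells the *TNFSF10* levels were 4.30, 4.44 and 5.20 TPM without and 2.36, 2.65 and 2.50 TPM with LPS. This call in shNT cells was the weakest of the 3, since it was lost with DESeq2 (adjusted p = 0.0768) and when either control replicate 3 or LPS replicate 1 was left out (adjusted p = 0.0606 and 0.0594).

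**Figure D2:**
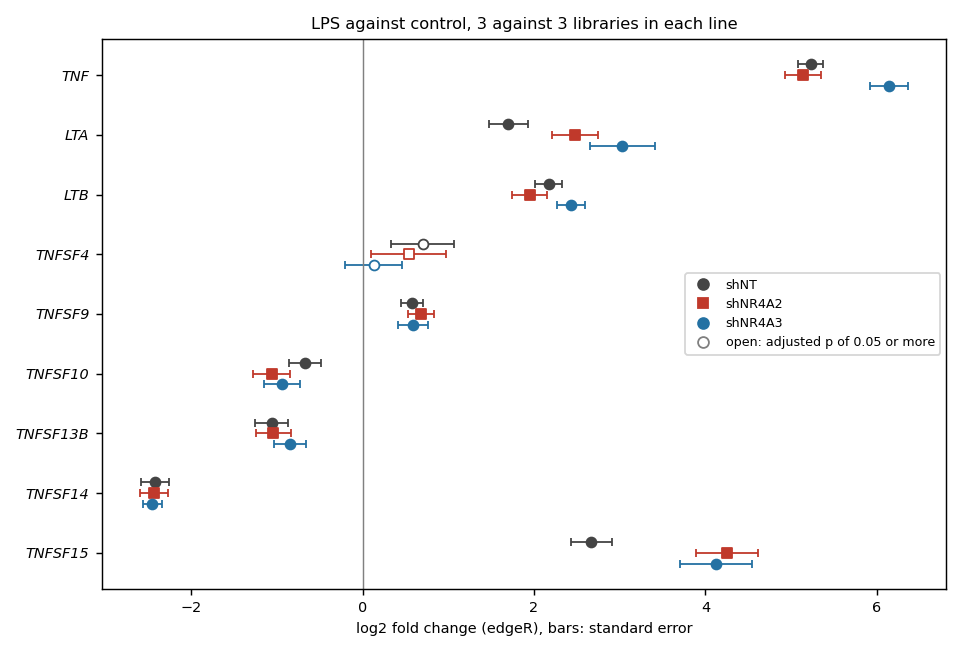
Log2 fold change with LPS against control (horizontal axis) of the 9 ligand genes tested, in shNT (grey circles), shNR4A2 (red squares) and shNR4A3 cells (blue circles), with standard errors from 3 against 3 libraries. Filled symbols passed an adjusted p under 0.05. *TNF* lies between 5.14 and 6.14 and *TNFSF14* between -2.45 and -2.42, and *TNFSF4* has only open symbols.

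The hairpin targets were examined before the lines were compared. *NR4A2* was at 4.16, 2.83 and 4.08 TPM in untreated shNT cells and at 1.82, 1.63 and 2.41 TPM in untreated shNR4A2 cells, and with LPS at 62.2, 74.7 and 51.3 TPM against 20.5, 28.3 and 14.8 TPM. *NR4A3* was at 0.556, 0.693 and 0.512 TPM in untreated shNT cells and at 0.158, 0.107 and 0.0315 TPM in untreated shNR4A3 cells, and with LPS at 30.9, 32.3 and 31.9 TPM against 17.0, 18.2 and 16.7 TPM. Each target was therefore lower in its knockdown line in every library, with log2 fold changes against shNT of -0.91 ± 0.228 and -1.52 ± 0.192 for *NR4A2* without and with LPS (edgeR adjusted p = 0.0359 and 0.00265), and of -2.47 ± 0.490 and -0.82 ± 0.0799 for *NR4A3* (edgeR adjusted p = 0.00767 and 0.000556). The call of *NR4A2* without LPS held in 2 of the 6 fits that left out a library. The *NR4A3* value without LPS rested on few reads, at 58 counts in shNT and 9 in shNR4A3 cells over all libraries of each group. DESeq2 gave it no adjusted p. In shNR4A3 cells given LPS, *NR4A2* was at 41.8, 60.7 and 38.3 TPM, a difference from shNT of -0.36 ± 0.156 on the log2 scale that was called with the replicate block (edgeR adjusted p = 0.198 without and 0.00132 with the block).

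Knockdown of *NR4A2* was compared with shNT at each condition. Without LPS, *TNFSF10* was higher in shNR4A2 cells, and it was the only ligand of 9 called, against 6.45% of all genes tested (3.63% higher and 2.82% lower). *TNFSF10* was at 9.22, 9.11 and 10.7 TPM in shNR4A2 cells and at 4.30, 4.44 and 5.20 TPM in shNT cells. Each knockdown library lay above each shNT library, and the log2 fold change was 1.06 ± 0.156 (edgeR adjusted p = 0.00233), which held when any library was left out. *LTA* was also at a higher level in every shNR4A2 control library, but its log2 fold change of 0.62 ± 0.245 did not pass the test (edgeR adjusted p = 0.171). The other 7 ligands had log2 fold changes between -0.15 and 0.75. The summed level of the monocyte markers, much of it *LYZ*, was also higher in these cells, at 1016 against 473 TPM. Its part in the result was not tested.

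With LPS, shNR4A2 cells had higher levels of *LTA* and *TNFSF15* than shNT cells, 2 of 9 ligands called against 6.96% of all genes tested (4.31% higher and 2.65% lower). *TNFSF15*, whose library values are given above, had a log2 fold change of 2.33 ± 0.269 (edgeR adjusted p = 0.00170), or 5.04-fold, and this call held when any library was left out. *LTA* had a log2 fold change of 1.40 ± 0.262 (edgeR adjusted p = 0.0147), or 2.64-fold, and its LPS groups did not overlap. The *LTA* call was lost without shNT LPS replicate 1 or 2 (adjusted p = 0.0549 and 0.0615). With the replicate block both ligands were called (edgeR adjusted p = 2.04e-11 for *LTA* and 1.66e-23 for *TNFSF15*). *TNFSF10*, at 2.68, 4.00 and 4.82 TPM against 2.36, 2.65 and 2.50 TPM, had a log2 fold change of 0.67 ± 0.241 and was not called without the replicate block (edgeR adjusted p = 0.131) but was called with it (0.0155), where 28.1% of all genes were called. *TNF*, with a log2 fold change of 0.06 ± 0.0936, and *LTB*, with -0.06 ± 0.166, were not called (edgeR adjusted p = 0.738 and 0.874).

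Knockdown of *NR4A3* was compared with the same shNT libraries, so that the comparisons of the 2 knockdown lines with shNT share their controls and are not independent. Without LPS, *TNF* was lower and *TNFSF10* and *TNFSF13B* were higher in shNR4A3 cells, 3 of 9 ligands called against 7.23% of all genes tested (3.91% higher and 3.32% lower). *TNF* had a log2 fold change of -1.02 ± 0.211 (edgeR adjusted p = 0.00970), or 0.492 times its shNT level, with all shNR4A3 libraries (19.3 to 39.8 TPM) below all shNT libraries (51.6 to 72.3 TPM). *TNFSF10* was at 9.64, 7.43 and 9.92 TPM in shNR4A3 cells, all above the shNT libraries, and its log2 fold change of 1.01 ± 0.181 was called whichever library was left out (edgeR adjusted p = 0.00398). The summed level of the monocyte markers, much of it *LYZ*, was 1278 against 473 TPM. This sum differed in the same direction as *TNFSF10* and *TNFSF13B* and opposite to *TNF*, and its part in these results was not tested.

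*TNFSF13B*, the BAFF gene, was at 18.1, 14.0 and 14.4 TPM in untreated shNR4A3 cells and at 9.88, 7.49 and 10.4 TPM in untreated shNT cells. The groups did not overlap, and the log2 fold change was 0.80 ± 0.166 (edgeR adjusted p = 0.0104). The calls of *TNF* and *TNFSF13B* were both lost without shNT control replicate 2 (adjusted p = 0.0547 and 0.0534). Both were called with the replicate block (edgeR adjusted p = 0.00659 and 0.00223). *TNFSF14* had a log2 fold change of 0.29 ± 0.132 and was not called (edgeR adjusted p = 0.228), but it was called with the replicate block (adjusted p = 0.0327), under which 14.8% of all genes were called, and without shNT control replicate 1 (0.47, adjusted p = 0.0401).

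With LPS, *TNFSF13B* and *TNFSF15* were higher in shNR4A3 than in shNT cells, 2 of 9 ligands called against 6.45% of all genes tested (3.99% higher and 2.46% lower). *TNFSF13B* was at 8.46, 6.41 and 7.12 TPM against 2.85, 4.30 and 4.26 TPM, with no overlap and a log2 fold change of 1.01 ± 0.215 (edgeR adjusted p = 0.0230). *TNFSF15* had a log2 fold change of 1.37 ± 0.330 (edgeR adjusted p = 0.0393), or 2.58-fold, and the groups did not overlap. Neither call held in every unpaired fit that left out a library. *TNFSF13B* was lost without shNT LPS replicate 1 or 2 or shNR4A3 LPS replicate 1 or 3 (adjusted p from 0.0681 to 0.0871). *TNFSF15* was lost when any library but shNR4A3 LPS replicate 2 was left out (adjusted p from 0.0685 to 0.141). Both ligands were higher in shNR4A3 cells in all 6 such fits, by 0.84 to 1.13 (*TNFSF13B*) and 0.87 to 1.65 (*TNFSF15*) on the log2 scale. With the replicate block both were called (edgeR adjusted p = 0.00267 and 3.48e-05).

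The replicate block gave 4 of 9 ligands called in shNR4A3 cells with LPS, the 2 above with *LTA* and *TNFSF10*, against 21.8% of all genes called under the block. *LTA* had a log2 fold change of 0.91 ± 0.295, with an edgeR adjusted p of 0.0999 without and 0.00120 with the block, and of 0.0323 with DESeq2. Its shNR4A3 libraries overlapped the shNT libraries through LPS replicate 2, at 10.5 TPM, while within each replicate number the order of *LTA* was shNR4A2, shNR4A3 and then shNT. *TNFSF10*, at 2.98, 4.30 and 4.82 TPM in shNR4A3 cells with LPS, had a log2 fold change of 0.74 ± 0.216 (edgeR adjusted p = 0.0728 without and 0.0165 with the block). *TNF* had a log2 fold change of -0.12 ± 0.0961 with LPS and was not called (edgeR adjusted p = 0.507).

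**Figure D3:**
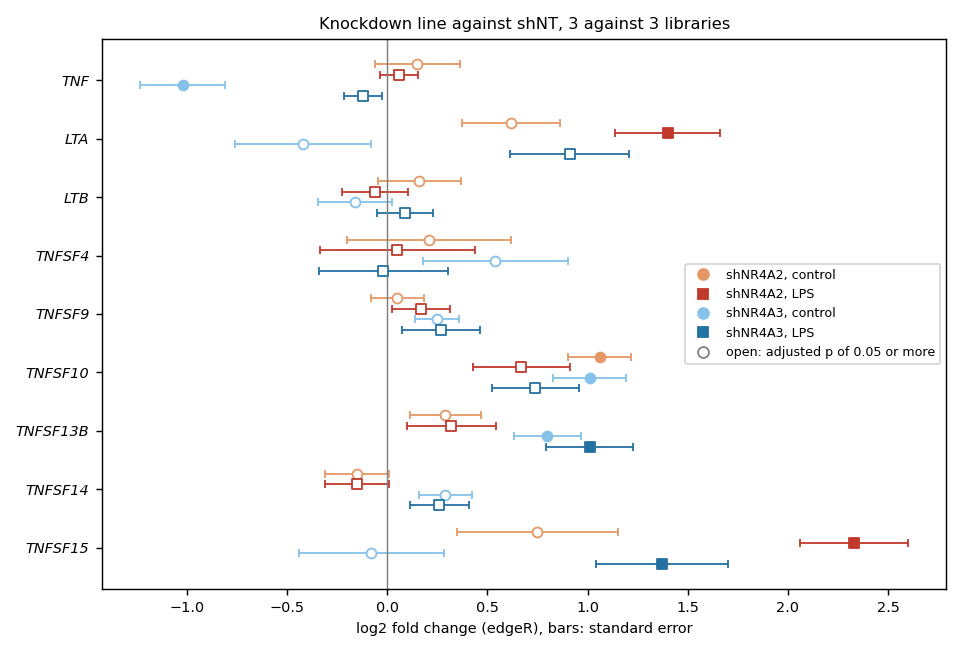
Log2 fold change of each knockdown line against shNT (horizontal axis) for the 9 ligand genes tested, without LPS (circles) and with LPS (squares), shNR4A2 in orange and red and shNR4A3 in light and dark blue, with standard errors from 3 against 3 libraries. Filled symbols passed an adjusted p under 0.05. *TNFSF15* with LPS lies at 2.33 and 1.37, *TNFSF10* without LPS at 1.06 and 1.01, and *TNF* in untreated shNR4A3 cells at -1.02.

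**Figure D4:**
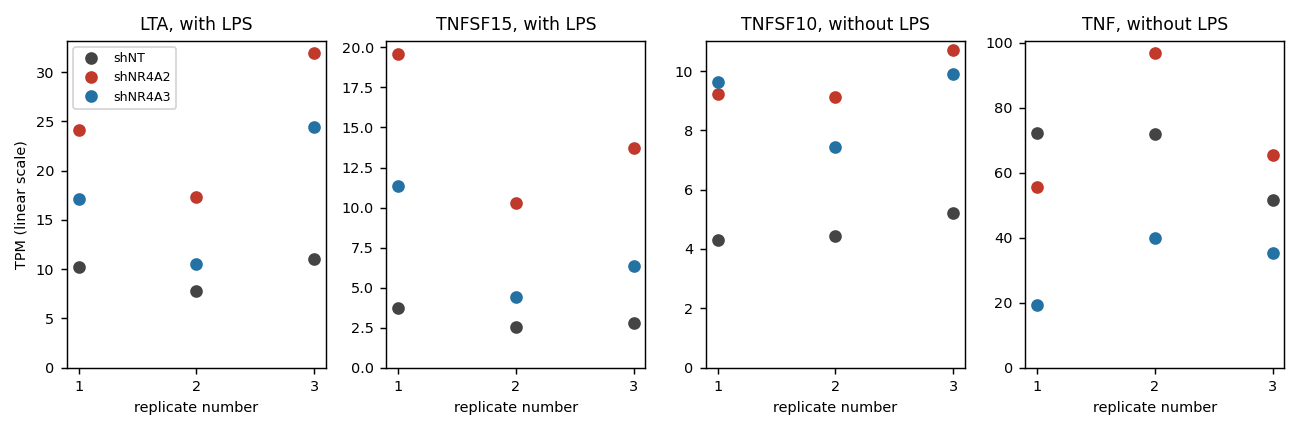
Transcript levels in TPM (vertical axes, linear) of *LTA* and *TNFSF15* with LPS and of *TNFSF10* and *TNF* without LPS, by replicate number (horizontal axis) in shNT (grey), shNR4A2 (red) and shNR4A3 cells (blue), 1 library per point. In replicates 1 to 3 with LPS, *LTA* and *TNFSF15* each keep the order shNR4A2, shNR4A3, shNT.

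The 2 knockdown lines were also set against each other. Without LPS, *TNF* was higher in shNR4A2 than in shNR4A3 cells by a log2 fold change of 1.17 ± 0.244 (edgeR adjusted p = 0.0208), the only ligand of 9 called, against 3.08% of all genes tested (1.94% higher and 1.14% lower). This call was lost without shNR4A3 control replicate 1 (adjusted p = 0.0688). With the replicate block 4 ligands were called, against 11.6% of all genes, *TNF*, *LTA* (log2 fold change 1.05, adjusted p = 0.0423), *TNFSF13B* (-0.51, adjusted p = 0.0114) and *TNFSF14* (-0.44, adjusted p = 0.00274). With LPS no ligand was called by DESeq2 or by edgeR with the low-count filter, these groups alone and no block. The share of all genes tested that edgeR called was 2.33% (1.27% higher and 1.06% lower). An unadjusted edgeR p under 0.05 was reached by 3 of the 9 ligands, beside 2773 of all 15539 genes tested. Under other edgeR settings, *TNFSF15* was called with no filter on low counts (log2 fold change 0.97, adjusted p = 3.9e-09), where 1102 of 39392 genes were called. *TNFSF13B* was called with all 18 libraries in 1 fit (-0.70, adjusted p = 0.0496), where 1032 of 16935 genes were called. The block gave 5 calls there, against 23.6% of all genes called under the block, with *TNF* (log2 fold change 0.19, adjusted p = 0.0193), *LTA* (0.51, adjusted p = 0.00525) and *TNFSF15* (1.01, adjusted p = 1.19e-05) higher and *TNFSF13B* (-0.68, adjusted p = 0.00458) and *TNFSF14* (-0.41, adjusted p = 0.0203) lower in shNR4A2 cells.

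Whether the LPS response itself differed between a knockdown line and shNT was tested as the difference of the 2 log2 fold changes. With the low-count filter and no replicate block, edgeR called no ligand for either line and no other gene (0% of 16674 genes for shNR4A2 and 0% of 16428 for shNR4A3). With the block it called 8 and 22 genes, none of them a ligand. By DESeq2, 2 and 10 genes were called, none of them a ligand. An unadjusted edgeR p under 0.05 was reached by 365 of 16674 genes for shNR4A2 and by 824 of 16428 for shNR4A3. The largest differences were those of *TNFSF15* and *LTA*, at 1.59 ± 0.530 and 0.78 ± 0.374 for shNR4A2 (edgeR unadjusted p = 0.00873 and 0.0533, adjusted p = 1.00 for both). For shNR4A3 the differences were 1.45 ± 0.579 for *TNFSF15*, 1.33 ± 0.489 for *LTA* and 0.90 ± 0.259 for *TNF* (edgeR unadjusted p = 0.0238, 0.0155 and 0.00323, adjusted p = 0.942, 0.942 and 0.791). With no filter on low counts, *TNFSF15* was called for shNR4A2 (edgeR adjusted p = 0.00111), where 29 of 44059 genes were called. For shNR4A3, *TNF*, *LTA* and *TNFSF15* were called (edgeR adjusted p = 1.04e-07, 0.0339 and 0.00702), where 138 of 43900 genes were called. These 3 were not called for shNR4A3 with DESeq2 (adjusted p = 0.29, 0.691 and 0.649) or with the replicate block (edgeR adjusted p = 0.217, 0.232 and 0.221). *TNFSF15* for shNR4A2 was not called by either (adjusted p = 0.999 with DESeq2 and 0.197 with the edgeR block).

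The receptors that the ligands bind were compared in the same fits. Of 29 genes of the TNF receptor superfamily, 19 were tested with LPS, and 4 rose and 6 fell in each line, against 24.9%, 19.3% and 28.1% of all genes called in shNT, shNR4A2 and shNR4A3 cells. *TNFRSF1A* and *TNFRSF1B*, the receptors for the *TNF* and *LTA* products, fell by log2 fold changes of -1.13 ± 0.0902 and -0.98 ± 0.141 in shNT cells (edgeR adjusted p = 5.02e-07 and 0.000158), from means of 112 to 44.0 TPM and from 130 to 56.8 TPM, and they fell in both knockdown lines. *LTBR*, the receptor for the *LTB* and *TNFSF14* products, fell by -0.50 ± 0.115 (edgeR adjusted p = 0.00545) and *TNFRSF14* by -0.58 ± 0.145 (edgeR adjusted p = 0.00898) in shNT cells. The fall of *TNFRSF14* passed the test in shNR4A2 but not in shNR4A3 cells. *LTBR* fell in shNR4A2 (-0.66 ± 0.145) and shNR4A3 cells (-0.68 ± 0.144) as well (edgeR adjusted p = 0.00629 and 0.00461).

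*TNFRSF9*, the receptor for the *TNFSF9* product, rose with LPS from a mean of 0.167 to 3.90 TPM in shNT cells, by 4.71 ± 0.380 on the log2 scale (edgeR adjusted p = 5.66e-07). Of the death receptors for the *TNFSF10* product, *TNFRSF10B* rose (0.98 ± 0.116) and *TNFRSF10A* fell (-0.71 ± 0.150) in shNT cells (edgeR adjusted p = 2.81e-05 and 0.00320), and both moved the same way in the knockdown lines, where the call of *TNFRSF10A* held in 1 and 2 of 6 fits that left out a library. The decoy receptors *TNFRSF10C* (-0.25 ± 0.158) and *TNFRSF10D* (-0.24 ± 0.204) were not called in shNT cells. *TNFRSF25*, the receptor for the *TNFSF15* product, differed by -0.72 ± 0.267 (log2) in shNT cells, which was not called (edgeR adjusted p = 0.0658, and 0.0175 with the replicate block), and fell in shNR4A2 (-1.26 ± 0.280) and shNR4A3 cells (-1.44 ± 0.419). The decoy receptor *TNFRSF6B* had 0 counts in all libraries, which allows up to 3 counts. *TNFRSF13C*, the BAFF receptor, had its highest group mean, 0.966 TPM, in untreated shNT cells, and *TNFRSF13B*, *TNFRSF17*, *TNFRSF4*, *TNFRSF8* and *TNFRSF11B* were too low to be tested. *CD40* (3.07 ± 0.154) and *TNFRSF18* (2.43 ± 0.539) were the other receptors that rose in shNT cells.

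Against shNT, *TNFRSF10A* was lower in untreated shNR4A2 cells (-0.74 ± 0.135) and in untreated (-0.90 ± 0.145) and LPS-treated (-1.05 ± 0.240) shNR4A3 cells (edgeR adjusted p = 0.00718, 0.00187 and 0.0315), in which its ligand gene *TNFSF10* had the values given above. *TNFRSF11A* was higher in untreated shNR4A2 cells (1.08 ± 0.289), *TNFRSF9* in LPS-treated shNR4A2 cells (1.22 ± 0.314) and *TNFRSF18* in LPS-treated shNR4A3 cells (1.65 ± 0.368), with edgeR adjusted p of 0.0477, 0.0493 and 0.0288. In the other line given LPS, *TNFRSF9* was at 0.99 ± 0.269 (shNR4A3) and *TNFRSF10A* at -0.73 ± 0.229 (shNR4A2) against shNT on the log2 scale, and both were called with the replicate block (edgeR adjusted p = 0.0580 and 0.0930 without, 0.000131 and 5.53e-05 with the block) and with DESeq2 (adjusted p = 0.00499 and 0.0476). Likewise, with LPS, *TNFRSF11A* was at 1.23 in shNR4A2 and *TNFRSF10C* at -0.95 in shNR4A3 cells against shNT, not called without the block (edgeR adjusted p = 0.0778 and 0.0524) but called with it (0.000157 and 0.00466) and with DESeq2 (0.0336 and 0.0192). The calls of *TNFRSF11A* without and *TNFRSF9* with LPS in shNR4A2 cells each held in 1 of 6 fits that left out a library, that of *TNFRSF18* in 2 of 6 and that of *TNFRSF10A* in LPS-treated shNR4A3 cells in 1 of 6. The call of *TNFRSF11A* in untreated shNR4A2 cells was also lost with DESeq2 (adjusted p = 0.0517). In untreated shNR4A3 cells *CD40* (-0.71 ± 0.124), *TNFRSF10C* (-0.98 ± 0.175) and *TNFRSF14* (-0.57 ± 0.155) were lower and *TNFRSF21* (0.39 ± 0.101) was higher (edgeR adjusted p = 0.00335, 0.00389, 0.0402 and 0.0311). Receptor genes called numbered 2 and 1 of 17 and 19 tested for shNR4A2 without and with LPS, and 5 and 2 of 17 and 19 for shNR4A3, against 6.45%, 6.96%, 7.23% and 6.45% of all genes. With the replicate block these numbers were 7, 11, 7 and 9, against 23.6%, 28.1%, 14.8% and 21.8% of all genes.

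Of 20 genes for adaptors and regulators downstream of the receptors, 19 were tested with LPS, and 9 rose and 2 fell in each line, beside the same 24.9%, 19.3% and 28.1% of all genes called. The largest rises in shNT cells were those of *TNFAIP3* (the deubiquitinase A20), *BIRC3* (an inhibitor of apoptosis) and *TRAF1* (an adaptor), with log2 fold changes of 5.85 ± 0.174, 5.45 ± 0.148 and 4.62 ± 0.160 (edgeR adjusted p = 9.45e-12, 3.76e-12 and 4.98e-11). *TRAF3*, *BIRC2*, *CFLAR*, *TNIP1*, *CYLD* and *TAB2* also rose, and *FADD* (-1.31 ± 0.133) and *CASP8* (-0.58 ± 0.0930), which form the death-inducing complex, fell. With LPS, *TRAF1*, *BIRC3* and *TAB2* were higher than in shNT in both knockdown lines, at log2 fold changes of 0.58 to 0.85 in shNR4A2 and 0.75 to 0.87 in shNR4A3 cells. *RIPK1* (0.44 ± 0.0972) and *CFLAR* (0.50 ± 0.123) were also higher in shNR4A3 cells given LPS (edgeR adjusted p = 0.0278 and 0.0421). Of these calls only that of *BIRC3* in shNR4A3 cells held whichever library was left out, and that of *TRAF1* was lost in 4 of 6 fits for shNR4A2 and 5 of 6 for shNR4A3. The LPS response of *BIRC3* in shNR4A3 minus that in shNT cells was 1.19 ± 0.270. It was not called without the replicate block (edgeR adjusted p = 0.497) but was called with it (0.0379), as 1 of 19 signalling genes tested. Without LPS, *CFLAR* was lower in shNR4A2 cells (-0.52 ± 0.107), and in shNR4A3 cells *TRAF3* was lower (-0.64 ± 0.0920) and *TAB2* higher (0.36 ± 0.0825) than in shNT (edgeR adjusted p = 0.0141, 0.000893 and 0.0193). These calls held in 4, 6 and 3 of 6 fits that left out a library, and with the block the number called without LPS went from 1 to 6 for shNR4A2 and from 2 to 3 for shNR4A3, beside 23.6% and 14.8% of all genes. With LPS the number called of 19 tested went with the block from 3 to 9 and from 5 to 9, while the share of all genes called went from 6.96% to 28.1% and from 6.45% to 21.8%.

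Of 5 genes whose products process ligands, *ADAM17*, the sheddase that releases TNF from the membrane, rose with LPS by 0.58 ± 0.0989 in shNT, 0.92 ± 0.139 in shNR4A2 and 0.94 ± 0.125 in shNR4A3 cells (edgeR adjusted p = 0.000666, 0.000471 and 0.000227). *SPPL2A*, an intramembrane protease, rose by 0.51 to 0.66. *FURIN* fell in shNR4A3 cells (-0.35 ± 0.0979, edgeR adjusted p = 0.0208), a call that held in 3 of 6 fits that left out a library. Its log2 fold changes of -0.24 in shNT and -0.27 in shNR4A2 cells were not called without the replicate block (edgeR adjusted p = 0.0698 and 0.204). With the block both were called (adjusted p = 0.018 and 0.0444). Among 8 further ligands of the superfamily, *CD70* rose by 1.07 ± 0.0819 in shNT cells (edgeR adjusted p = 3.05e-07) and was lower in shNR4A2 than in shNT cells without LPS (-0.52 ± 0.0972) and with LPS (-0.42 ± 0.0826), with edgeR adjusted p of 0.00837 and 0.0184, the latter held in 3 of 6 fits that left out a library. *TNFSF18* rose with LPS in shNR4A2 cells (4.07 ± 0.562, edgeR adjusted p = 0.000230), from 7 to 94 counts over 3 libraries. In the other lines it was too low for its response to LPS to be tested. Its counts without and with LPS were 2 and 41 in shNT and 0 and 30 in shNR4A3 cells. Its response in shNR4A2 minus that in shNT was -0.13 ± 0.621. Between lines given LPS, *TNFSF18* in shNR4A2 cells was at 1.35 ± 0.377 against shNT and 1.62 ± 0.406 against shNR4A3 (log2). Neither was called without the block (edgeR adjusted p = 0.0656 and 0.0836), but both were with it (0.00273 and 0.00347). The latter was also called with DESeq2 (adjusted p = 0.0494). In shNR4A3 against shNT it was at -0.27 ± 0.508 and not called (edgeR adjusted p = 0.793). *TNFSF11* fell in shNR4A3 cells (-1.69 ± 0.396, edgeR adjusted p = 0.00804), and its log2 fold changes of -0.51 ± 0.471 in shNT and -1.08 ± 0.485 in shNR4A2 cells were not called (edgeR adjusted p = 0.485 and 0.148). *TNFSF13* was higher in shNR4A3 than in shNT cells (0.69 ± 0.179 without and 0.68 ± 0.169 with LPS, edgeR adjusted p = 0.0328 and 0.0438), calls that held in 1 and 0 of 6 fits that left out a library and, with LPS, not with DESeq2 (0.0525), and *EDA*, *CD40LG* and *FASLG* were too low to be tested.

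**Figure D5:**
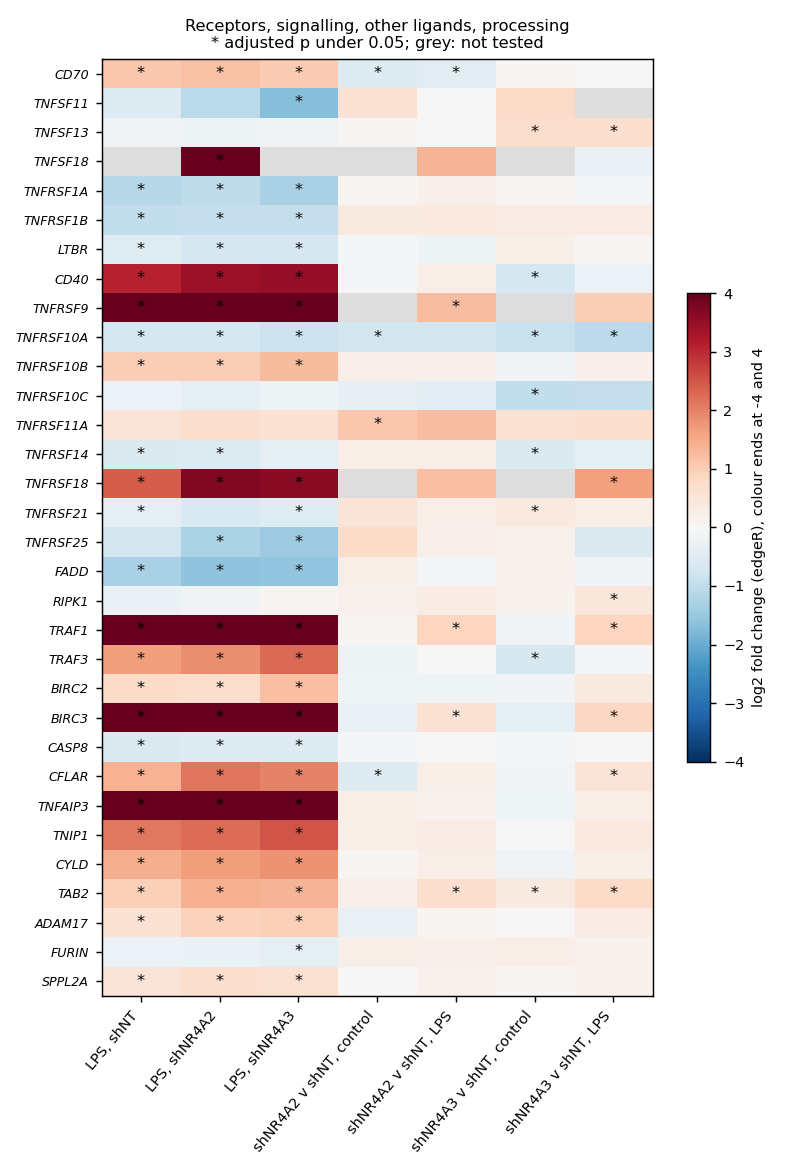
Log2 fold changes (colour, red higher, blue lower, ends at -4 and 4) of the 32 receptor, signalling, ligand and processing genes called in at least 1 of 7 comparisons (columns). Asterisks mark an adjusted p under 0.05 and grey cells were not tested. *TRAF1*, *BIRC3*, *TNFAIP3* and *TNFRSF9* are the deepest red with LPS in all 3 lines, and the knockdown columns are paler.

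The genes whose levels followed each ligand most closely over the 18 libraries were found by Pearson correlation of log2(TPM + 1) among 19312 genes, and the values are descriptions that rest largely on the difference between control and LPS libraries. *TNF* was most like *DUSP8* (r = 0.992), *CCL3* (0.992), a chemokine gene, and *ZC3H12C* (0.991). *LTB* was most like *RELB* (0.984) and *NFKB2* (0.980), which encode subunits of non-canonical NF-kappaB, and *OPTN* (0.978). *LTA* was most like *PNPLA1* (0.969), *TCF7L2* (0.959) and *EIF1B* (0.956), and *TNFSF15* was like *CLDN1* (0.987) and *SLAMF7* (0.974).

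The ligands that fell had other neighbours. *TNFSF14* was most like *CISH* (0.991), a suppressor of cytokine signalling, *C16orf54* (0.985) and *HHEX* (0.984). *TNFSF13B* was most like *PIK3R3* (0.947), *PPCS* (0.943) and *RPA2* (0.939), and *TNFSF10* like *TNFAIP8L3* (0.944), *PPM1M* (0.938) and *PPCS* (0.927). *TNFSF9* had the least close neighbours of the ligands compared, with *CXCL6* (0.912) and *SLC43A2* (0.893). Among the ligands themselves, *TNF* and *LTB* had r = 0.974, *LTA* and *TNFSF15* r = 0.928, and *TNF* and *TNFSF14* r = -0.989.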

How the data were processed

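Counts per gene were deposited for each of 18 polyA-selected libraries. Per the submitters' notes the authors used Trimmomatic 0.36, STAR 2.5.2b and featureCounts of Subread 1.5.2 with GRCh38; the strand setting of the counting is not given in the sources used here. The deposited counts were whole numbers with no normalization, and no 2 libraries were identical. Symbols came from GENCODE 29 (56898 of 57500 genes). TPM were computed from the deposited counts and exon lengths. Libraries were grouped by GEO's labels, 3 per group, and the p-values measure only the spread between these libraries.

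Each of 11 comparisons was fitted across all genes with edgeR 4.0.16 (R 4.3.3; filterByExpr, TMM scaling, quasi-likelihood F test) on its own groups, with Benjamini-Hochberg adjustment over all genes tested and a call at 0.05. Differences in LPS response were fitted as an interaction on 4 groups. The fitting was tested on simulated data. DESeq2 1.42.0, DESeq2's size factors, no filter on low counts, all 18 libraries in 1 fit, a 2-fold limit, leaving out each library, and the replicate number as a block were the alternatives. Residuals of libraries with the same replicate number correlated above 0.1 for every number in 8 of 9 pairwise comparisons. The exception was replicate 2 of LPS in shNT cells (-0.01). The numbers, which come from the labels, were therefore taken to pair the libraries except in that comparison and in the interactions (lowest -0.01). The edgeR values given are from fits without this pairing, except where the replicate block is named. The fits that left out a library were also unpaired. The exact permutation test of 3 against 3 libraries cannot go below p = 0.1 and was not used.

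The members and lists were chosen with earlier results of these data known. The genes named are the members, the hairpin targets, the known receptors of the members, list genes called at 2-fold or more, further list genes added after their values were seen, and the 3 genes that correlate best with each member of at least 1 TPM, except that a few genes are not reported here. Promoters were read from RefSeq tables.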

Additional observations from a re-analysis of the deposited data

How the results depend on the processing

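Of 1195 log2 fold changes recomputed under another setting, 1093 kept their direction and their side of the threshold, 22 lost and 25 gained a call, and 55 changed sign. Of 66 counts of ligands called under settings that kept all libraries, 57 were within 1.5 times the reported count. The exceptions were LPS in shNR4A3 cells with a 2-fold limit (5 ligands), shNR4A3 against shNT with LPS under the replicate block (4), shNR4A2 against shNR4A3 without LPS with no filter on low counts (2) and under the block (4), the same lines with LPS with no filter (1), under the block (5) and with all 18 libraries in 1 fit (1), and the differences in LPS response with no filter (1 for shNR4A2 and 3 for shNR4A3). The 2-fold limit removes small changes by its construction; the cause of the others was not tested. The replicate block changed no other call among the 10 ligands than those given with the comparisons.

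Leaving out 1 library gave 1 to 2 ligands called for shNR4A2 against shNT with LPS, 1 to 4 for shNR4A3 against shNT without LPS, 0 to 4 for shNR4A3 against shNT with LPS, and 0 to 1 for shNR4A2 against shNR4A3 without LPS. The 0 for shNR4A3 with LPS came without shNT LPS replicate 1 or 2 or shNR4A3 LPS replicate 1 or 3, and the 4 without shNR4A3 LPS replicate 2. The 22 log2 fold changes whose sign turned when a library was left out were all uncalled. For shNR4A2 against shNT without LPS they ranged from -0.14 to 0.31 for *TNF*, -0.05 to 0.30 for *LTB*, -0.04 to 0.48 for *TNFSF4*, -0.03 to 0.15 for *TNFSF9* and -0.26 to 0.03 for *TNFSF14*, and with LPS from -0.00 to 0.11 for *TNF*, -0.23 to 0.10 for *LTB* and -0.22 to 0.32 for *TNFSF4*. For shNR4A3 against shNT they ranged from -0.41 to 0.21 for *TNFSF15* without LPS, and from -0.07 to 0.19 for *LTB* and -0.18 to 0.13 for *TNFSF4* with LPS. For shNR4A2 against shNR4A3 they ranged from -0.09 to 0.13 for *TNFSF10* without LPS, and with LPS from -0.32 to 0.02 for *LTB*, -0.20 to 0.34 for *TNFSF4*, -0.31 to 0.07 for *TNFSF9* and -0.29 to 0.10 for *TNFSF10*. For the difference in LPS response they ranged for shNR4A2 from -0.24 to 0.20 for *TNF*, -0.43 to 0.12 for *TNFSF4*, -0.14 to 0.15 for *TNFSF13B* and -0.19 to 0.14 for *TNFSF14*, and for shNR4A3 from -0.15 to 0.22 for *TNFSF9* and -0.22 to 0.11 for *TNFSF14*. Under the replicate block the differences in response of *TNFSF14* for shNR4A2 (0.01) and *TNFSF9* for shNR4A3 (-0.01) changed sign.

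Depth limits *TNFSF4*, *TNFSF8* and untreated *TNFSF15* and *NR4A3*, and 3 libraries per group limit small differences. Each knockdown is 1 line, so that hairpin and line cannot be told apart.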
